A study of Vitis vinifera with 36 samples.

Results

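The genes that complete and move the grape berry anthocyanins were followed through ripening, 6 among the 28441 with a value in any of the 36 libraries. They were picked by their annotated function: *VviUFGT* (VIT_216s0039g02230), 3 *VviAOMT* genes (VIT_201s0010g03470, VIT_201s0010g03490 and VIT_201s0010g03510), *Vvi3AT* (VIT_203s0017g00870) and *VviGST4* (VIT_204s0079g00690). The libraries came from the white-berried “Riesling” and the black-berried “CS” (Cabernet Sauvignon), in the winter and the summer crop of 2014 and at E-L 35 (veraison begins), E-L 36 (veraison ends) and E-L 38 (harvest). Each of the 12 conditions had 3 biological replicates, each from the whole pericarp of 50 berries without their seeds. Vines of both cultivars were 7 years old, stood on SO4 roots under rain shelters in southern China, and were pruned and forced with hydrogen cyanamide before each of the 2 crops of the year. Before the winter crop the vines were also defoliated by hand. Cyanamide then went only on the terminal bud and near the pruning wound, while the terminal bud was left unsprayed before the summer crop. Winter and summer differ in everything that comes with the time of year, the order of the crops on a vine and these treatments. With a single site and year these differences cannot be told apart.

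The anthocyanin pathway makes an unstable coloured aglycone, and the genes followed here act after that point. UFGT adds glucose to it, the step long known to be missing in white grapes. AOMT transfers methyl groups to the B-ring, which turns cyanidin and delphinidin pigments into the peonidin, petunidin and malvidin types, and 3AT attaches acyl groups to the sugar. GST4 is a glutathione S-transferase needed to carry the finished pigment to the vacuole. In grape the pigment is formed mostly in the skin, so in whole pericarp a change in the share of skin and a change in the RNA per cell cannot be told apart.

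On the 12X V2 gene models, *VviUFGT* lies on the minus strand of chromosome 16 from 2332463 to 2334702 and has 2 exons. An exon of VIT_216s0039g02220 on the plus strand, from 2332474 to 2334682, covers 2132 of the 2163 exonic bases of *VviUFGT*. Whether the counting used the strand is not stated, so the values of *VviUFGT* are uncertain by the amount the neighbour contributes. Counts of *VviUFGT* were fractional in 0 of 36 libraries and those of the neighbour in 35. How reads of this pair of genes were assigned was not tested. *VviGST4* (chromosome 4, 11504521 to 11507410, minus strand, 3 exons) and *Vvi3AT* (chromosome 3, 16023816 to 16025522, plus strand, 1 exon) overlap no other model.

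The 3 *VviAOMT* genes lie close together on the plus strand of chromosome 1, at 20819229 to 20822809 (4 exons), 20828338 to 20830656 (5 exons) and 20850068 to 20852679 (5 exons). Their counts were fractional in 17, 18 and 18 of the 18 “CS” libraries, as happens when reads that fit several copies are divided, so the split among them is uncertain while their sum is less so. The counts of *VviUFGT*, *Vvi3AT* and *VviGST4* were whole in every library.

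The libraries held 8367013 to 28686956 counts (median 10966200), at which 3 counts correspond to 0.105 to 0.359 CPM (counts scaled to library size). All 6 genes were among the 20183 tested after low counts were removed, although in “Riesling” most values of *VviAOMT* and *Vvi3AT* were at 3 counts or fewer. On a ripening index drawn from genes that changed between the first and last stage in the other 3 crops, the “Riesling” summer libraries labelled E-L 38 stood at -0.54 ± 0.08, below those labelled E-L 36 at 0.33 ± 0.33 (SD, n = 3 each), so comparisons that use them may not compare harvest berries with harvest berries. At E-L 38 in “CS”, winter replicate 1 was the highest of its group in all 6 genes, and summer replicate 1 was the lowest of its group in 5 genes and the highest in VIT_201s0010g03470.

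At E-L 36 in “CS”, 5 of the 6 genes were called higher in winter than in summer berries, where 6.50% of all genes tested were called higher. Genes were called where edgeR's quasi-likelihood test gave an adjusted p (Benjamini-Hochberg) up to 0.01 with a change of 2-fold or more. *VviUFGT* stood at 117, 130 and 123 FPKM (reads scaled by transcript length and library size) in winter berries and at 56.1, 47.8 and 55.6 FPKM in summer berries (log2 fold change 1.36, SE 0.17, adjusted p = 4.4e-07). *VviGST4* was the most abundant of the 6 genes, at 878, 1055 and 961 FPKM in winter berries against 342, 290.3 and 313 FPKM in summer berries (log2 fold change 1.76, SE 0.28, adjusted p = 1.0e-05). Each winter library thus held more of either transcript than any summer library, with no overlap.

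The acylation and methylation genes followed the same course at this stage. *Vvi3AT* reached 44.8, 60.0 and 50.7 FPKM in winter berries, against 20.4, 20.5 and 21.2 FPKM in summer berries (log2 fold change 1.47, SE 0.27, adjusted p = 1.1e-04). For the main *VviAOMT* transcript, VIT_201s0010g03510, the values were 106, 138 and 124 FPKM in winter and 50.9, 42.2 and 43.7 FPKM in summer berries (log2 fold change 1.58, SE 0.27, adjusted p = 3.1e-05). Summer replicates of *Vvi3AT* lay within 1 FPKM of each other, and the winter and summer groups did not overlap for either gene.

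The second *VviAOMT* copy, VIT_201s0010g03490, stood at 27.6, 37.3 and 35.0 FPKM in winter berries and 14.2, 11.2 and 12.3 FPKM in summer berries at E-L 36 (log2 fold change 1.56, SE 0.42, adjusted p = 0.0063). It was called with the full set of libraries and in 1 of the 6 fits with a library left out. The third copy, VIT_201s0010g03470, held little signal, with 2.08, 6.12 and 1.55 FPKM in winter against 1.60, 0.56 and 2.32 FPKM in summer, groups that overlapped and were not called (log2 fold change 1.30, SE 0.69, adjusted p = 0.15). The median log2 fold change of the 6 genes was 1.52, beside -0.01 over all genes tested.

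**Figure D1:**
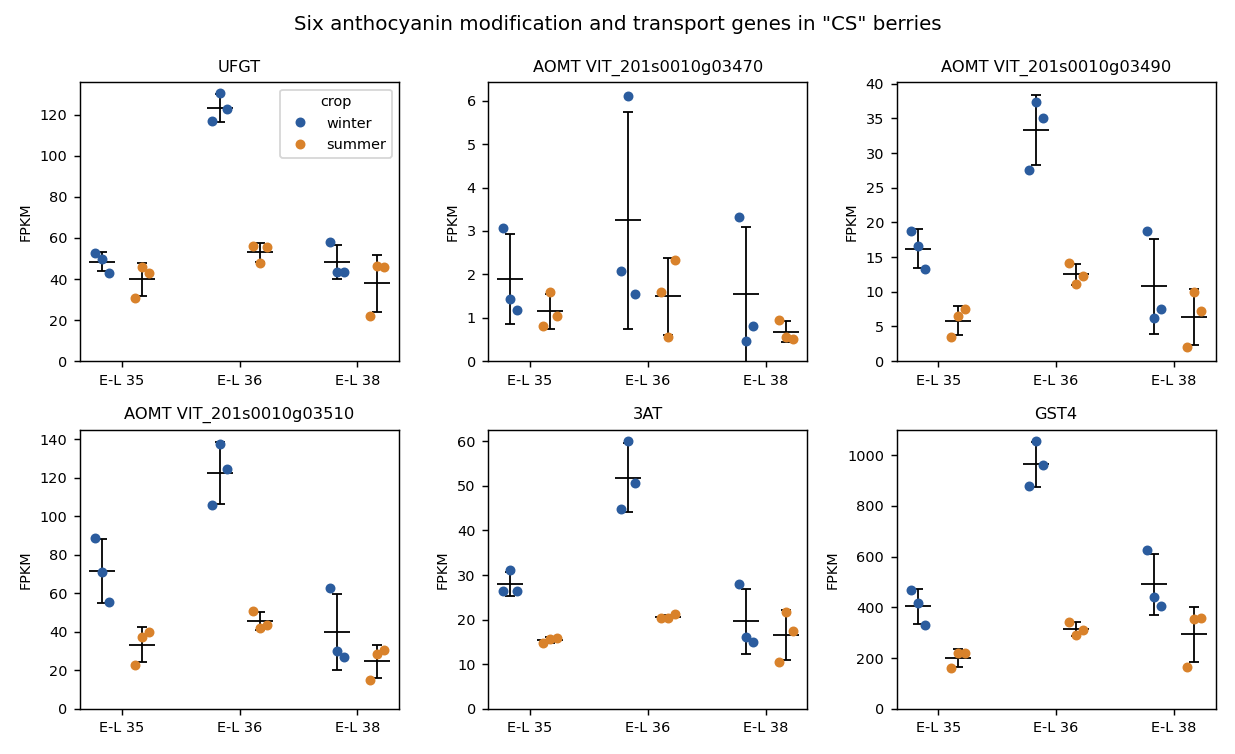
FPKM of the 6 genes in each of the 18 “CS” libraries by stage, winter left of summer, with 1 point a library and the mean ± SD of 3 replicates. At E-L 36 the winter libraries of *VviUFGT* sit between 117 and 130 FPKM and the summer libraries between 47.8 and 56.1 FPKM.

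At E-L 35 in “CS”, 3 of the 6 genes were called higher in winter, beside 4.54% of all genes tested. *VviGST4* stood at 467, 417 and 330 FPKM in winter berries and at 160.0, 219 and 220 FPKM in summer berries (log2 fold change 1.08, SE 0.27, adjusted p = 0.0025). VIT_201s0010g03510 had 88.6, 71.0 and 55.4 FPKM in winter berries, against 22.8, 37.4 and 39.7 FPKM in summer berries (log2 fold change 1.17, SE 0.27, adjusted p = 0.0010). VIT_201s0010g03490 had 18.8, 16.6 and 13.2 FPKM in winter, against 3.43, 6.52 and 7.45 FPKM in summer (log2 fold change 1.55, SE 0.44, adjusted p = 0.0082).

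The winter and summer libraries of these 3 genes did not overlap, but no call remained without summer replicate 1, the lowest of its group, or without winter replicate 1. *Vvi3AT* was also separated, at 26.4, 31.2 and 26.4 FPKM in winter and 14.7, 15.6 and 16.0 FPKM in summer berries, and fell short of the 2-fold limit (log2 fold change 0.91, SE 0.27, adjusted p = 0.0096). *VviUFGT* was not called at this stage, with 52.5, 49.8 and 43.2 FPKM in winter berries and 30.9, 45.7 and 43.0 FPKM in summer berries (log2 fold change 0.34, SE 0.17, adjusted p = 0.12). The groups overlapped for *VviUFGT* and for VIT_201s0010g03470 (3.08, 1.43 and 1.18 FPKM in winter, 0.82, 1.60 and 1.03 FPKM in summer berries).

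At E-L 38 in “CS”, none of the 6 genes was called in edgeR, beside 17.2% of all genes tested called in either direction, and none by DESeq2 or by limma on FPKM. The unadjusted p was under 0.05 for 2 of them. On the ripening index the winter libraries stood at 2.55 ± 0.11 and the summer libraries at 1.59 ± 0.16 (SD, n = 3 each). The part of this in the comparison was not tested. *VviGST4* stood at 627, 441 and 406 FPKM in winter berries and 166, 355 and 358 FPKM in summer berries (log2 fold change 0.69, SE 0.27, adjusted p = 0.034), and *VviUFGT* at 57.9, 43.6 and 43.4 FPKM in winter berries and 22.0, 46.3 and 45.8 FPKM in summer berries (log2 fold change 0.29, SE 0.17, adjusted p = 0.16). The winter replicate 1 was the highest and the summer replicate 1 the lowest library of each gene.

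Without these libraries at E-L 38, an alternative chosen after their values were seen, the log2 fold change was 0.19 for *VviGST4*, -0.14 for *VviUFGT*, -0.11 for VIT_201s0010g03510, and -0.39 for both *Vvi3AT* and VIT_201s0010g03490. So 4 of the small positive differences at harvest changed sign when both were left out. For these genes the libraries dropped were the highest winter and the lowest summer library, so a fall was set by the choice. No gene was called with or without these libraries.

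**Figure D2:**
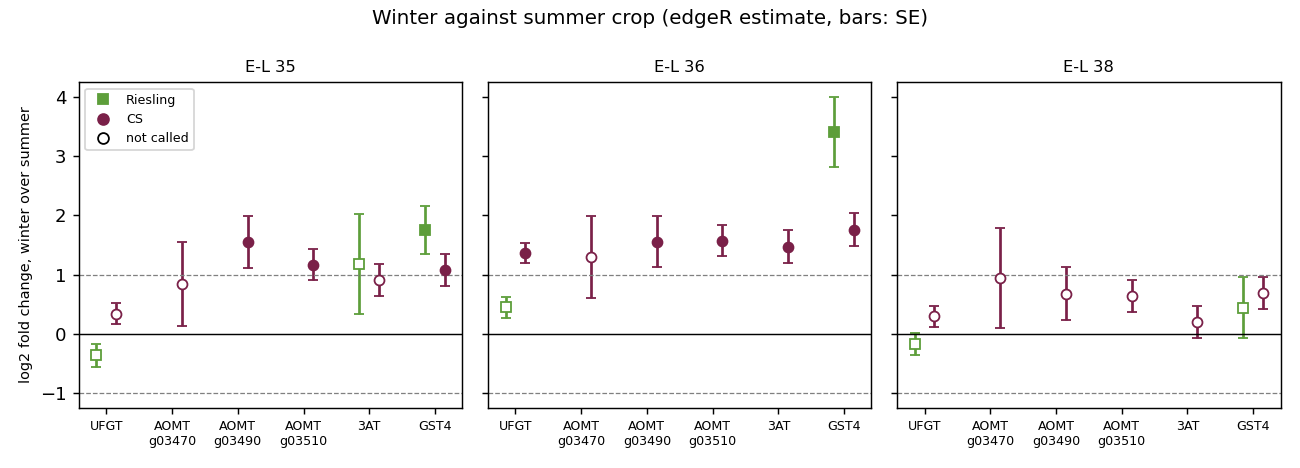
Log2 fold change of winter over summer berries for the 6 genes at each stage, from edgeR, with bars of 1 SE, filled where called and open where not, and dashed lines at a 2-fold change. “Riesling” is shown where each crop had at least 1 library above 3 counts. The tallest point is *VviGST4* in “Riesling” at E-L 36 (3.41), and 5 “CS” genes are filled at that stage.

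Through ripening, the “CS” winter crop had a peak at E-L 36 that passed the thresholds, while smaller changes in the summer crop did not pass them. The difference in course between the crops was not itself tested, and at E-L 38 the winter berries stood further along the ripening index. At E-L 36 over E-L 35 in winter, 3 genes were called higher (3.78% of all genes tested), namely *VviUFGT* (log2 fold change 1.51, SE 0.17), *VviGST4* (1.41, SE 0.27) and *Vvi3AT* (1.05, SE 0.27). In the next step, E-L 38 over E-L 36, 5 genes were called lower (9.83% of all genes tested), by 1.14 (SE 0.27) for *VviGST4* to 1.83 (SE 0.43) for VIT_201s0010g03490 on the log2 scale. VIT_201s0010g03470 was not called in either step.

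In the “CS” summer crop no gene was called in the earlier or the later step in edgeR, DESeq2 or limma, beside 6.51% and 2.41% of all genes tested called in either direction. In each step 3 genes had an unadjusted p under 0.05. Every gene but VIT_201s0010g03470 was higher in each E-L 36 library than in any E-L 35 library (log2 fold changes 0.49 to 1.19). *VviUFGT*, VIT_201s0010g03490 and VIT_201s0010g03510 were then lower in each E-L 38 library (log2 fold changes -0.45, -0.94 and -0.85), and the other genes overlapped. The mean of *VviUFGT* in summer berries was 39.9 ± 7.92 FPKM at E-L 35, 53.1 ± 4.66 FPKM at E-L 36 and 38.0 ± 13.9 FPKM at E-L 38 (SD, n = 3). Ordered by mean over the 6 “CS” conditions, *VviUFGT* was highest in winter berries at E-L 36 (123 ± 6.77 FPKM), apart from all others, and each of the next 5 conditions overlapped its neighbour in the order. For *VviGST4* the winter crop took the 3 highest places, at 965 ± 88.4 FPKM (E-L 36), 491 ± 119 FPKM (E-L 38) and 405 ± 69.6 FPKM (E-L 35), and again only the first was apart from its neighbour.

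Proportions between genes were also compared within each library, and they differed between the crops for the transport gene. The ratio of *VviGST4* to *VviUFGT* was 8.31 ± 0.63 in winter berries and 5.03 ± 0.22 in summer berries at E-L 35 (SD, n = 3). At E-L 36 it was 7.80 ± 0.29 in winter and 5.94 ± 0.26 in summer berries, and at E-L 38 10.1 ± 0.75 in winter and 7.68 ± 0.13 in summer berries (SD, n = 3). Every winter library lay above every summer library of its stage, 1.42-fold over the stages (exact two-sided permutation within stage, p = 0.00025, the smallest that 8000 arrangements can give, adjusted p = 0.001 over 4 proportions), and the ratio was also higher with E-L 38 replicates 1 left out (log2 0.48, adjusted p = 0.0033).

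The summed *VviAOMT* level relative to *VviUFGT* was 1.84 ± 0.25 in winter berries and 1.00 ± 0.12 in summer berries at E-L 35, with no overlap (SD, n = 3). At E-L 36 the values were 1.28 ± 0.12 in winter and 1.12 ± 0.07 in summer berries, and at E-L 38 1.04 ± 0.37 in winter and 0.83 ± 0.02 in summer berries, with overlap at both stages (SD, n = 3). Over the stages it was 1.36-fold higher in winter (log2 0.45, exact permutation, adjusted p = 0.0085). By the same test the log2 difference was 0.23 without E-L 35 (adjusted p = 0.17) and 0.57 without E-L 36 (adjusted p = 0.060). With a stage left out the test has fewer arrangements, so a lost call alone cannot show that the difference depended on that stage.

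The ratio of *Vvi3AT* to *VviUFGT* was 0.58 ± 0.07 in winter and 0.40 ± 0.07 in summer berries at E-L 35, and between 0.39 and 0.44 in the other 4 conditions (means, n = 3). Over the stages it did not pass the exact permutation test (1.12-fold, adjusted p = 0.23). Among the methylation copies, VIT_201s0010g03510 held 73.1% to 84.3% of the summed FPKM in each of the 18 libraries, and its share did not pass the test either (1.30 percentage points lower in winter berries, adjusted p = 0.33). Reads of the gene opposite *VviUFGT* would enter every ratio to it, and their part was not tested.

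**Figure D3:**
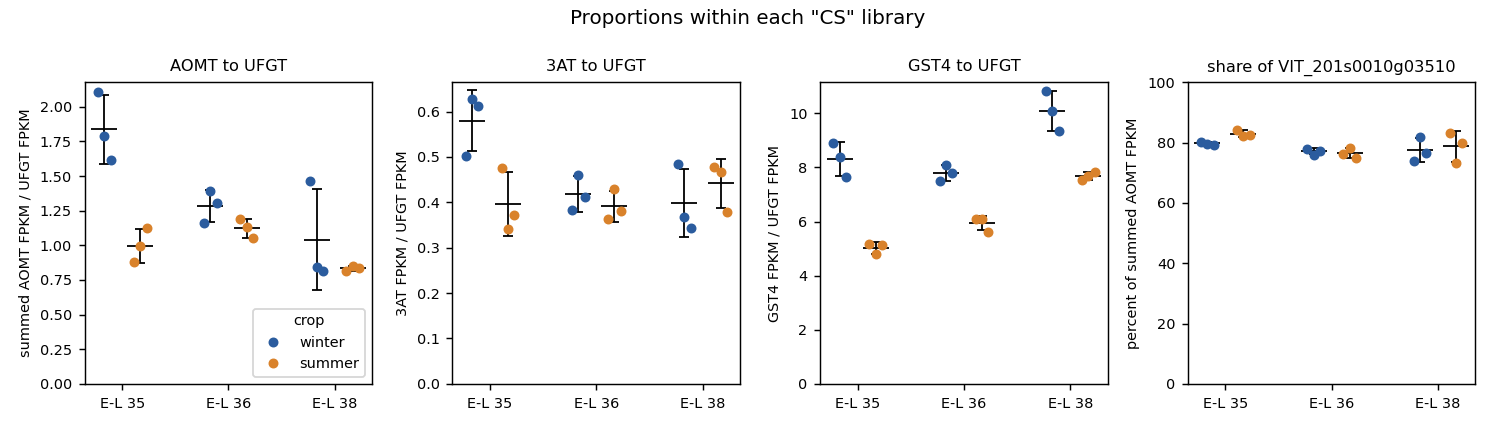
Ratios of FPKM within each “CS” library and the percent of summed *VviAOMT* FPKM held by VIT_201s0010g03510, by stage, winter left of summer, with the mean ± SD of 3 libraries. The *VviGST4* to *VviUFGT* ratio is 10.1 in winter and 7.68 in summer berries at E-L 38 and does not overlap at any stage.

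The genes other than VIT_201s0010g03470 also moved together from library to library. Over the 18 “CS” libraries, Pearson's r of log2(FPKM + 1) between *VviUFGT* and the others was 0.90 for *VviGST4*, 0.92 for *Vvi3AT*, 0.92 for VIT_201s0010g03490, 0.90 for VIT_201s0010g03510 and 0.61 for VIT_201s0010g03470. After the condition means were taken off, r was 0.98 for *VviGST4*, 0.80 for *Vvi3AT* and 0.30 for VIT_201s0010g03470, so that replicates of the same condition that were high in *VviUFGT* were high in *VviGST4*. These are descriptions over libraries that share stages, crops and a few libraries apart from the rest.

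**Figure D4:**
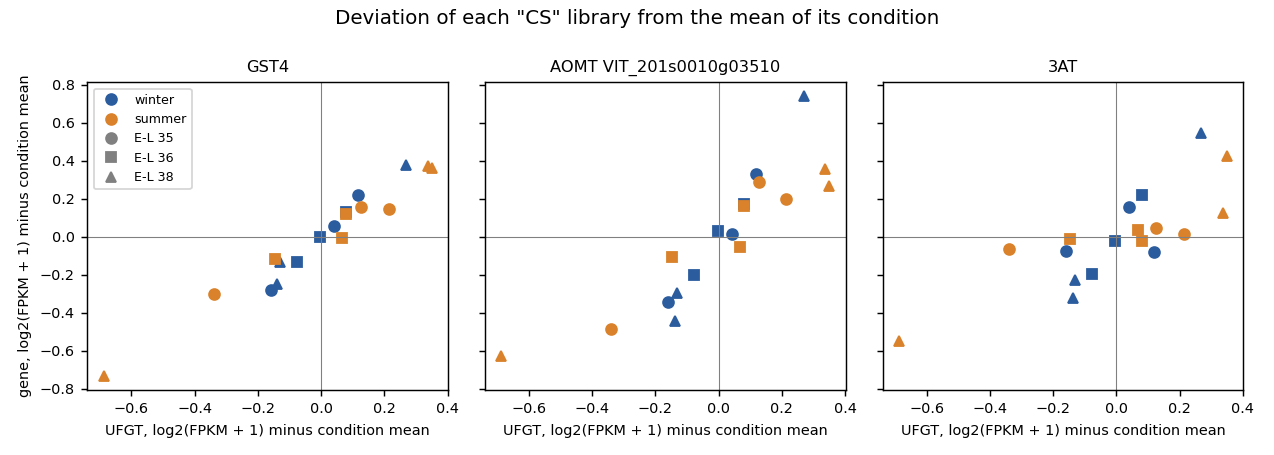
Deviation of each of the 18 “CS” libraries from the mean of its condition in log2(FPKM + 1), *VviUFGT* on the horizontal axis against 3 other genes, coloured by crop and shaped by stage. The points of *VviGST4* lie close to a line (r = 0.98), and the widest spread is at E-L 38.

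Among 20160 genes compared with *VviUFGT* over the 18 “CS” libraries, the most alike was the overlapping VIT_216s0039g02220 (r = 0.97), and the part of shared reads in this value was not tested. The others of the 10 most alike were VIT_218s0001g09400 (r = 0.94), VIT_212s0057g00860 (r = 0.92), *Vvi3AT*, VIT_201s0010g03490, VIT_203s0088g00260 (r = 0.92), *VviLDOX* VIT_202s0025g04720 (r = 0.91), VIT_216s0050g00910 (r = 0.91), VIT_208s0007g03550 (r = 0.91) and *VviGST4*. *VviLDOX*, which makes the aglycone that UFGT glucosylates, thus stood beside 3 of the followed genes, and VIT_201s0010g03510 ranked 12th. With Spearman's rho 3 of the 10 remained in the first 10, with the 6 condition means 2 remained, and all 10 stayed within the first 100 under each measure.

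VIT_216s0050g00910, which the sources used here do not name, had a mean of 302 ± 14.5 FPKM in winter and 68.8 ± 6.84 FPKM in summer “CS” berries at E-L 36 (SD, n = 3). None of its 18 “Riesling” libraries exceeded 4.42 FPKM. The overlapping VIT_216s0039g02220 stood at 16.7 to 29.9 FPKM in the 18 “Riesling” libraries, against 20.8 to 59.1 FPKM in “CS”, and *VviLDOX* was also expressed in “Riesling”, with 33.6, 33.0 and 30.8 FPKM in winter berries at E-L 36.

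The *VviAOMT* genes span 33451 bases on chromosome 1, in a window of 12 gene models that reaches 50000 bases to either side, of which 9 are not among the 3 copies and 4 of these could be tested. The models VIT_201s0010g03480 and VIT_201s0010g03500 lie between the copies and had no value in any library. VIT_201s0010g03460 ends directly before the start of VIT_201s0010g03470 and held 15.3 to 27.7 FPKM over the 36 libraries, in both cultivars and crops. VIT_201s0010g03430 on the minus strand had 5.55, 2.46 and 3.40 FPKM in winter and 0.86, 1.23 and 1.21 FPKM in summer “CS” berries at E-L 36 (log2 fold change 1.90, SE 0.52, adjusted p = 0.0050). In “Riesling” it was called lower than in “CS” in all 6 comparisons of the cultivars, with 0.76 FPKM or less in each library.

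In “Riesling”, *VviUFGT* was detected in every library while the genes for methylation and acylation were near the limit of counting. *VviUFGT* lay between 7.10 and 10.8 FPKM (median 8.92) in the 18 “Riesling” libraries, against 22.0 to 130 FPKM (median 47.0) in the 18 “CS” libraries, so the cultivars did not overlap. *VviGST4* lay between 0.09 and 6.96 FPKM (median 1.48) in “Riesling”, against 160.0 to 1055 FPKM (median 357) in “CS”. The transport gene, the most abundant of the 6 in “CS”, was thus below *VviUFGT* in every “Riesling” library, with a ratio of 0.01 to 0.98.

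Over the 18 “Riesling” libraries, VIT_201s0010g03510 reached at most 0.64 FPKM and *Vvi3AT* at most 0.49 FPKM, and 12 and 14 of these libraries had 3 counts or fewer. VIT_201s0010g03470 and VIT_201s0010g03490 were at 0 counts in 16 of 18 libraries each. These counts are after rounding to whole numbers. In “CS” the lowest value was 14.98 FPKM for VIT_201s0010g03510 and 10.5 FPKM for *Vvi3AT*. Across its “Riesling” libraries *VviUFGT* had an r of 0.69 with the overlapping VIT_216s0039g02220, a description over 18 libraries, and how much of the 7.10 to 10.8 FPKM belongs to either gene was not tested.

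**Figure D5:**
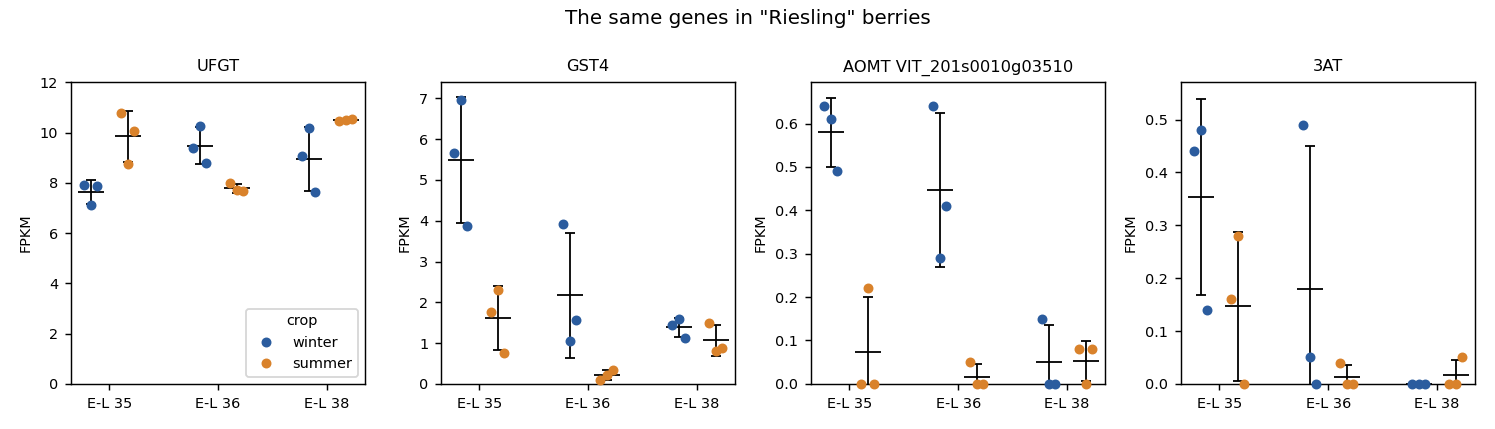
FPKM of *VviUFGT*, *VviGST4*, VIT_201s0010g03510 and *Vvi3AT* in each “Riesling” library by stage, winter left of summer, with the mean ± SD of 3 replicates; each panel has its own scale. *VviUFGT* stays between 7.10 and 10.8 FPKM, and *VviGST4* is highest in winter berries at E-L 35 (3.88 to 6.96 FPKM).

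Tested within crop and stage, all 6 genes were called lower in “Riesling” than in “CS” in winter at E-L 35 (5.91% of all genes tested called lower), in winter at E-L 36 (4.95%) and in summer at E-L 36 (7.61%). In winter at E-L 38 (6.56%), in summer at E-L 35 (5.66%) and in summer at E-L 38 (8.84%) 5 were called, all but VIT_201s0010g03470. *VviUFGT* was 3.94-fold lower in “Riesling” in summer at E-L 38, where the difference was smallest, and 14.6-fold lower in winter at E-L 36, where it was largest (log2 fold changes -1.98, SE 0.18, and -3.87, SE 0.19). *VviGST4* was 81.4-fold lower in winter at E-L 35 and 1602-fold lower in summer at E-L 36 (log2 fold changes -6.35, SE 0.35, and -10.65, SE 0.47).

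For the remaining genes, conditions in which every “Riesling” library was at 3 counts or fewer were set against counts. In winter at E-L 36 the “Riesling” libraries held 0 counts of VIT_201s0010g03490 and the “CS” libraries 1362, so that it was at least 359-fold lower in “Riesling” (against 3 counts over the group). *Vvi3AT* held 0 counts in “Riesling” and 1486 counts in “CS” winter berries at E-L 38, at least 306-fold lower in “Riesling”. Where it could be counted in both cultivars, VIT_201s0010g03510 was 132-fold lower in “Riesling” in winter at E-L 35 and 304-fold lower in winter at E-L 36.

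Within “Riesling”, *VviGST4* was the gene called between the crops. At E-L 36 it stood at 3.92, 1.04 and 1.57 FPKM (54, 17 and 27 counts) in winter berries and at 0.09, 0.22 and 0.34 FPKM (2, 5 and 8 counts) in summer berries (log2 fold change 3.41, SE 0.59, adjusted p = 6.9e-05; 4.65% of all genes tested called higher). At E-L 35 it had 5.66, 6.96 and 3.88 FPKM in winter and 1.77, 2.30 and 0.75 FPKM in summer berries (log2 fold change 1.75, SE 0.40, adjusted p = 0.0010; 5.54% called higher). The crops did not overlap at either stage, but neither call held when only the libraries compared were fitted (adjusted p = 0.043 for E-L 35 and 0.011 for E-L 36). The call for E-L 35 was also lost without summer replicate 3 (adjusted p = 0.011). At E-L 36 the winter libraries stood below the summer libraries on the ripening index, and the part of this in the difference was not tested.

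VIT_201s0010g03510 was counted in each “Riesling” winter library at these stages, with 0.64, 0.61 and 0.49 FPKM at E-L 35 and 0.64, 0.29 and 0.41 FPKM at E-L 36, against 0, 0.22 and 0 FPKM and 0.05, 0 and 0 FPKM in summer. This was a total of 17 counts in winter and 1 count in summer at E-L 36, a ratio of 28.1 with an exact 95% counting interval of 4.40 to 1173. At E-L 35 it was 21 counts in winter and 3 counts in summer, a ratio of 6.83 (2.04 to 35.8). It did not pass at either stage in edgeR (adjusted p = 0.049 for E-L 35 and 0.011 for E-L 36), and was called by DESeq2 at E-L 36 (adjusted p = 0.0012).

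*VviUFGT* in “Riesling” had no steady direction between the crops. It was lower in each winter library at E-L 35 (7.93, 7.10 and 7.87 FPKM in winter, 10.8, 8.76 and 10.1 FPKM in summer; log2 fold change -0.36, SE 0.19, adjusted p = 0.13) and higher in each at E-L 36 (9.37, 10.3 and 8.79 FPKM in winter, 8.00, 7.70 and 7.66 FPKM in summer; log2 fold change 0.45, SE 0.18, adjusted p = 0.067). At E-L 38 neither *VviUFGT* nor *VviGST4* was called, with 27.9% of all genes tested called in either direction in edgeR, none at an unadjusted p under 0.05, and none called by DESeq2 or limma.

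Between stages in “Riesling”, *VviGST4* in summer berries was called lower at E-L 36 than it was at E-L 35 (0.22 ± 0.13 FPKM at E-L 36, 1.61 ± 0.79 FPKM at E-L 35; log2 fold change -2.90, SE 0.62, adjusted p = 5.6e-04; 6.92% of all genes tested called lower). It was called higher in the summer libraries labelled E-L 38 (1.07 ± 0.38 FPKM) than at E-L 36 (log2 fold change 2.36, SE 0.67, adjusted p = 0.0059; 5.78% called higher), with SD over n = 3 each. That call rests on the libraries that stood apart on the ripening index and was lost in 4 of 6 fits with a library left out. In winter no gene was called between stages by edgeR, beside 10.1% (E-L 36 over E-L 35) and 18.9% (E-L 38 over E-L 36) of all genes tested in either direction. In each of these steps 2 genes had an unadjusted p under 0.05 and DESeq2 called 1.

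The season difference of *VviUFGT* at E-L 36 was smaller in “Riesling” than in “CS” by 0.92 on the log2 scale (interaction, SE 0.25, adjusted p = 0.0092; 5.69% of all genes tested were called in this direction). The call was lost in each of the 12 fits with a library left out. For *VviGST4* at E-L 36 the difference between the cultivars was 1.65 (SE 0.68, adjusted p = 0.080), larger in “Riesling” and not called. It was -0.33 in limma on log2(FPKM + 1). That scale adds 1 FPKM to “Riesling” values of 0.09 to 3.92 FPKM and shrinks their fold, so its sign cannot decide the direction. No interaction was called at E-L 35 (1.53% of all genes tested) or E-L 38 (13.4%) by edgeR, DESeq2 or limma, where 1 of 4 and 0 of 2 genes that could be tested had an unadjusted p under 0.05.

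The steps before glucosylation were called in both directions in “CS”. Of 25 genes of the shared steps (*CHS*, *CHI*, *F3H*, *F3′H*, *F3′5′H*, *DFR* and *LDOX*), 16 were called higher and 4 were called lower in winter (E-L 36), beside 6.50% and 5.82% of all genes tested, with a median log2 fold change of 1.72. At E-L 35 it was 9 higher and 2 lower (median 1.01; 4.54% and 5.83% of all genes tested), and at E-L 38 7 higher and 3 lower (median 0.57; 7.29% and 9.90%), while the medians over all genes tested were between -0.03 and 0.00. At E-L 36 the largest rise was in *VviF3′5′H* VIT_206s0009g03000, which directs precursors towards delphinidin types (12.1 ± 4.42 FPKM in winter, 1.73 ± 0.63 FPKM in summer; log2 fold change 2.94, SE 0.65, adjusted p = 7.3e-04). Its counts were fractional in 24 of the 29 libraries in which it was counted, so its split from the other *VviF3′5′H* copies is uncertain.

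The largest fall of that list was in *VviDFR* VIT_202s0025g01260, an annotated dihydroflavonol reductase at low level with 0, 0.03 and 0.04 FPKM in winter and 1.49, 0.87 and 1.28 FPKM in summer “CS” berries at E-L 36 (adjusted p = 9.0e-06, 3 counts in all in winter against 87 in summer). Among 10 genes of competing branches, which make flavonols and proanthocyanidins, 9 were tested and 3 were called higher and 1 lower at this stage (6.50% and 5.82% of all genes tested). *VviFLS* VIT_211s0118g00390, a flavonol synthase, was higher (80.3 ± 9.78 FPKM in winter, 25.9 ± 2.51 FPKM in summer; log2 fold change 1.77, SE 0.14), and *VviFLS5* was lower (5.83 ± 0.27 FPKM in winter, 29.4 ± 1.02 FPKM in summer; log2 fold change -2.14, SE 0.19). Neither of the 2 *Vvi53GT* genes was called in “CS” at any stage.

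The *VviMYBA* genes encode MYB factors, of which MYBA1 and MYBA2 are known to switch on *VviUFGT* in coloured grapes. In “CS” at E-L 36, 3 of the 7 regulators were called higher in winter, beside 6.50% of all genes tested: *VviMYBA3* (log2 fold change 2.94, SE 0.41), *VviMYBA1* VIT_202s0033g00380 (2.85, SE 0.55) and *VviMYBA2* (2.33, SE 0.47). *VviMYBA1* VIT_202s0033g00410 was not called (0.87, SE 0.44, adjusted p = 0.13), nor were *VviMYC1* (-0.08, SE 0.13), *VviMYCA1* (-0.23, SE 0.12) and *VviWDR1* (-0.41, SE 0.16), which encode the bHLH and WD-repeat partners of such factors. Over the 18 “CS” libraries r with *VviUFGT* was 0.74 for *VviMYBA3*, 0.70 for *VviMYBA2*, and 0.68 and 0.70 for VIT_202s0033g00380 and VIT_202s0033g00410. These genes ranked 107th to 193rd of the 20160 genes compared. For *VviMYC1*, *VviMYCA1* and *VviWDR1* r was 0.01, -0.10 and -0.26.

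Levels of *VviMYBA2* in harvest “Riesling” winter berries (91.5, 85.2 and 84.5 FPKM) overlapped those in harvest “CS” winter berries (146, 67.9 and 68.6 FPKM; log2 fold change -0.13, SE 0.45, adjusted p = 0.86). At that stage and crop *VviUFGT* was 5.45-fold lower in “Riesling” and *VviGST4* 355-fold lower. The paper states that mutations in the coding region of *VviMYBA2* disrupt its function in white grapes. Its RNA level thus does not give its activity, which was not tested. *VviMYBA1* VIT_202s0033g00410 behaved otherwise, with 0.15, 0.26 and 0.19 FPKM in “Riesling” and 8.58, 3.17 and 2.98 FPKM in “CS” winter berries (log2 fold change -4.53, SE 0.77, adjusted p = 6.1e-05). The other *VviMYBA1* entry, VIT_202s0033g00380, did not share this low level in “Riesling”. In the same harvest winter libraries it held 229 counts in all in “Riesling” and 222 in “CS”, not scaled to library size. Counts of the *VviMYBA* genes were fractional in 26 to 36 libraries, so their split among copies is uncertain.

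Between the crops in “Riesling” at E-L 38, *VviMYBA2* stood at 91.5, 85.2 and 84.5 FPKM in winter and 0.58, 0.33 and 0.78 FPKM in the summer libraries labelled E-L 38 (log2 fold change 7.21, SE 0.75, adjusted p = 2.8e-09). At E-L 36 it had 85.1, 85.4 and 72.9 FPKM in winter and 7.65, 7.17 and 42.8 FPKM in summer berries (log2 fold change 2.24, SE 0.48, adjusted p = 7.6e-04). The summer replicate 3 stood far above its replicates, and the winter and summer groups did not overlap. *VviUFGT* in the same libraries stayed between 7.63 and 10.5 FPKM at both stages.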

How the data were processed

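Estimated counts and FPKM of 36 berry libraries were analysed as deposited. The authors sequenced 50-bp single reads, aligned them to grapevine genome 12X V2 with up to 2 mismatches (Bowtie, version not given in the sources used here) and deposited, per library, an expected count (not normalized) and FPKM for each gene; the program behind the expected counts is not given in the sources used here. Counts were fractional for 23.8% to 28.9% of a library's genes. A table of the whole series with 36 columns that are only numbered was not used. Deposited gene models gave positions; 0 gene identifiers matched the reference table, so no sequences and no seed or skin markers were used, and names come from the study's annotation.

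Expected counts were rounded and fitted over 12 conditions with edgeR 4.0.16 (filterByExpr, TMM, glmQLFit, glmQLFTest) in R 4.3.3. Winter was set over summer (6 comparisons), “Riesling” over “CS” (6), later over earlier stage (8), and the season effect of “Riesling” minus that of “CS” (3, adjusted p of at most 0.01 alone). Adjusted p-values run over the 20183 genes tested in each comparison. A condition in which each library had 3 counts or fewer was treated as at the floor, and intervals and floors cover counting error only. Alternatives were DESeq2 1.42.0 and limma 3.58.1 on log2(FPKM + 1) and log2(FPKM + 0.1), the scaling, the filter, the libraries in the fit, the threshold, a replicate block and each library left out. Ratios within libraries used exact permutation of crop within stage over 8000 arrangements. The ripening index subtracts the average standardized log2 CPM of 624 genes called lower at harvest than at E-L 35 from that of 148 called higher, each called in both “CS” crops and in the “Riesling” winter crop. Named genes are the 6 followed, the 10 most like *VviUFGT*, the *VviMYBA* genes, and from each pathway list the called gene with the largest change in each direction at E-L 36 in “CS”. VIT_201s0010g03430 and VIT_201s0010g03460 were named after their values were seen. The genes followed and the lists were chosen with earlier results of these data known. The fits were tested on simulated data. Other steps ran in Python 3.11.15 (scipy 1.17.1, pandas 2.3.3, numpy 2.4.6), and plots in matplotlib 3.10.9.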

Additional observations from a re-analysis of the deposited data

Results flagged for a closer look

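The winter over summer log2 fold change of *VviUFGT* at E-L 36 was 0.45 (SE 0.18) in “Riesling” and 1.36 (SE 0.17) in “CS”, and the test of their difference in edgeR gave -0.92 (SE 0.25, adjusted p = 0.0092). This is a difference of a contrast between the cultivars. Each winter library was above each summer library of its cultivar. The adjusted p lay between 1.4e-04 and 0.034 over 21 alternatives, 6 of which kept the call, and the part of the overlapping VIT_216s0039g02220 in the counts of either cultivar was not tested.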

How the results depend on the processing

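The winter rise of *VviUFGT*, *VviGST4* and VIT_201s0010g03510 in “CS” at E-L 36 was called under each of 15 alternatives, and the number of genes called lower in “Riesling” than in “CS” moved by at most 1 in any comparison. Of the single-gene values, 942 kept direction and side of the threshold when a setting changed, 17 reversed, 31 became called and 23 lost their call; with a library left out it was 672, 12, 5 and 37. Low counts limit *VviAOMT* and *Vvi3AT* in “Riesling”.

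With only the libraries compared in the fit, 0 genes were called between the “Riesling” crops at the first 2 stages, 0 lower at E-L 36 over E-L 35 in “Riesling” summer, and 1 higher in that step in “CS” summer. The replicate block left 0 interactions at E-L 36 (“Riesling” minus “CS”); correlations of deviations between same-numbered libraries were not above 0.1 for all 3 pairs in any comparison, so the numbers were not taken as pairs. DESeq2 called 2 genes in “Riesling” at E-L 36 and 1 lower in each “Riesling” winter step.

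On log2(FPKM + 1), with the filter or over all listed genes, interactions were -0.53 (VIT_201s0010g03510) and -0.58 (*Vvi3AT*) at E-L 35. At E-L 36 they were -0.90, -1.08 and -0.33 (with *VviGST4*), and 2 were called lower with the filter. The added 1 FPKM exceeds most “Riesling” values behind these signs and shrinks their folds, so the signs cannot decide a direction. On this scale 1 gene was called lower at E-L 36 over E-L 35 in “Riesling” winter and 0 higher at E-L 38 over E-L 36 in “Riesling” summer. On log2(FPKM + 0.1), 0 genes were called in “CS” at E-L 35, 3 at E-L 36, 2 in “Riesling” at either stage, and 0 interactions (*Vvi3AT* -0.43 at E-L 36); “CS” winter had 1 higher and then 3 lower, and “Riesling” winter 1 lower in each step.

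At an adjusted p up to 0.05 with no fold limit, 1 gene was called in “CS” at E-L 38, 2 in “Riesling” at either earlier stage, 5 in the first step of “CS” winter, 2 in the first and 1 in the second of “CS” summer, 1 higher and 1 lower in the first and 1 lower in the second of “Riesling” winter, and 2 in the second of “Riesling” summer.

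Without both “CS” E-L 38 replicates 1 (chosen after seeing the data), the season change was -0.39 (VIT_201s0010g03490), -0.11 (VIT_201s0010g03510), -0.39 (*Vvi3AT*) and -0.14 (*VviUFGT*), the *VviGST4* interaction 0.25, its second “CS” summer step 0.22, and the VIT_201s0010g03510 share 0.042 percentage points. Without E-L 35 the log2 *VviAOMT* ratio was 0.23 and the *Vvi3AT* ratio -0.030; without E-L 36 the *VviAOMT* ratio was 0.57, and without E-L 38 the *Vvi3AT* ratio 0.33. The cause of these changes was not tested.

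With each library left out in turn, 0 to 2 genes were called in “CS” at E-L 35, 0 to 1 in “Riesling” at that stage, 0 interactions at E-L 36, 0 to 1 higher in the second step of “Riesling” summer and 0 to 1 lower in the first of “Riesling” winter. The season change at E-L 38 in “CS” ranged between -0.13 and 0.43 for *Vvi3AT* and between -0.21 and 1.47 for VIT_201s0010g03470. Interactions of *Vvi3AT* ranged between -0.23 and 1.00 at E-L 35 and between -0.57 and 3.40 at E-L 36, and that of *VviGST4* at E-L 38 between -0.43 and 0.078. The first “CS” summer step of VIT_201s0010g03470 ranged between -0.021 and 0.85, the second of *VviGST4* between -0.22 and 0.25, the first “Riesling” winter step of VIT_201s0010g03510 between -0.49 and 0.0013, and the second of *VviGST4* between -0.97 and 0.052.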
